A study of Mus musculus with 6 samples.

Results

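Transcripts of peroxisomal fatty acid oxidation and of the carnitine acyltransferases were compared between livers of mice on a high-fat and on a low-fat diet. The members are 9 genes fixed by name: Ehhadh, Hsd17b4, Acaa1a, Acaa1b, Decr2, Crat, Crot, Cat and Pex11a. A probe set, a group of short array probes for one transcript, counted as a member when its only gene symbol was one of these. This gave 10 probe sets for 7 genes, of 10855 probe sets for 8252 genes with a single symbol in all. Decr2 and Crot are not listed in the gene table for these probe sets and are not analysed here. All animals were C57BL/6 mice, a common inbred laboratory strain, and had been on their diet for 12 weeks. The high-fat group of 3 arrays received a high-fat diet of Western style, and the low-fat group of 3 arrays a low-fat diet. Keywords common to all 6 arrays mention LDL receptor deficiency, but no array is labelled with that genotype. Whether an array was run on 1 mouse or on a pool is not labelled, and neither age nor sex is given in the sources used here. The p-values therefore cover only the spread between these arrays, which may be technical.

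Peroxisomes shorten very long, branched and dicarboxylic fatty acids that mitochondria handle poorly. Each round opens with an oxidation that releases hydrogen peroxide, which catalase removes. A bifunctional enzyme, Ehhadh or Hsd17b4, carries out the hydration and the dehydrogenation, and a thiolase, Acaa1a or Acaa1b, cleaves off acetyl-CoA. Carnitine acetyltransferase (Crat) and carnitine octanoyltransferase (Crot) turn the short and medium chain products into carnitine esters that can leave the organelle. Pex11a takes part in the division of peroxisomes. In rodent liver several of these genes are classical targets of the fatty acid receptor PPAR-alpha, encoded by Ppara.

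The deposited values are intensities, linear brightness values that each array's whole-array scaling has made comparable. Values below a floor of 68.9, the 30th percentile of all intensities, were raised to it before log2 was taken, and 8950 probe sets with at least 3 arrays above the floor were tested with limma. A probe set is said to have risen or fallen where its Benjamini-Hochberg adjusted p, over all 8950, is under 0.05. A fold is 2 to the power of the difference between the mean log2 values, high-fat minus low-fat. The 10 member probe sets all passed the filter, 9 with 6 arrays above the floor. The dim Crat probe set 161989_f_at passed with 4, of which only 1 was a low-fat array, so it passed through the group where it is high and is left out of the counts below, except where all 10 are named.

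On the high-fat diet 2 of the 10 member probe sets rose, 1 of Crat and 1 of Acaa1b, and 0 fell. Of all probe sets tested, 0.402% rose and 0.425% fell. Crat was 2.29-fold higher, and the Acaa1b probe set that rose was 1.92-fold higher. Values above 0 on the log2 scale were found for 8 of the 9, against 50.5% of all tested. Here and below, the shares are over all 8950 tested, which also include probe sets with fewer than 6 arrays above the floor. Every high-fat array lay above every low-fat array for 6 of the 9, against 7.34% of all tested. These 6 belong to Ehhadh, Hsd17b4, Acaa1b, Crat and Pex11a, while the arrays of the diets overlapped for Acaa1a and Cat. The median log2 difference of the 9 was 0.54, against 0.0026 over all probe sets tested. An unadjusted p under 0.05 with a higher value on the high-fat diet was reached by 6 of the 9, against 4.82% of all. At a looser adjusted p of 0.10 the count was 3 of the 9, with Ehhadh added, where 0.626% of all probe sets tested were past it and higher on the high-fat diet.

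**Figure D1:**
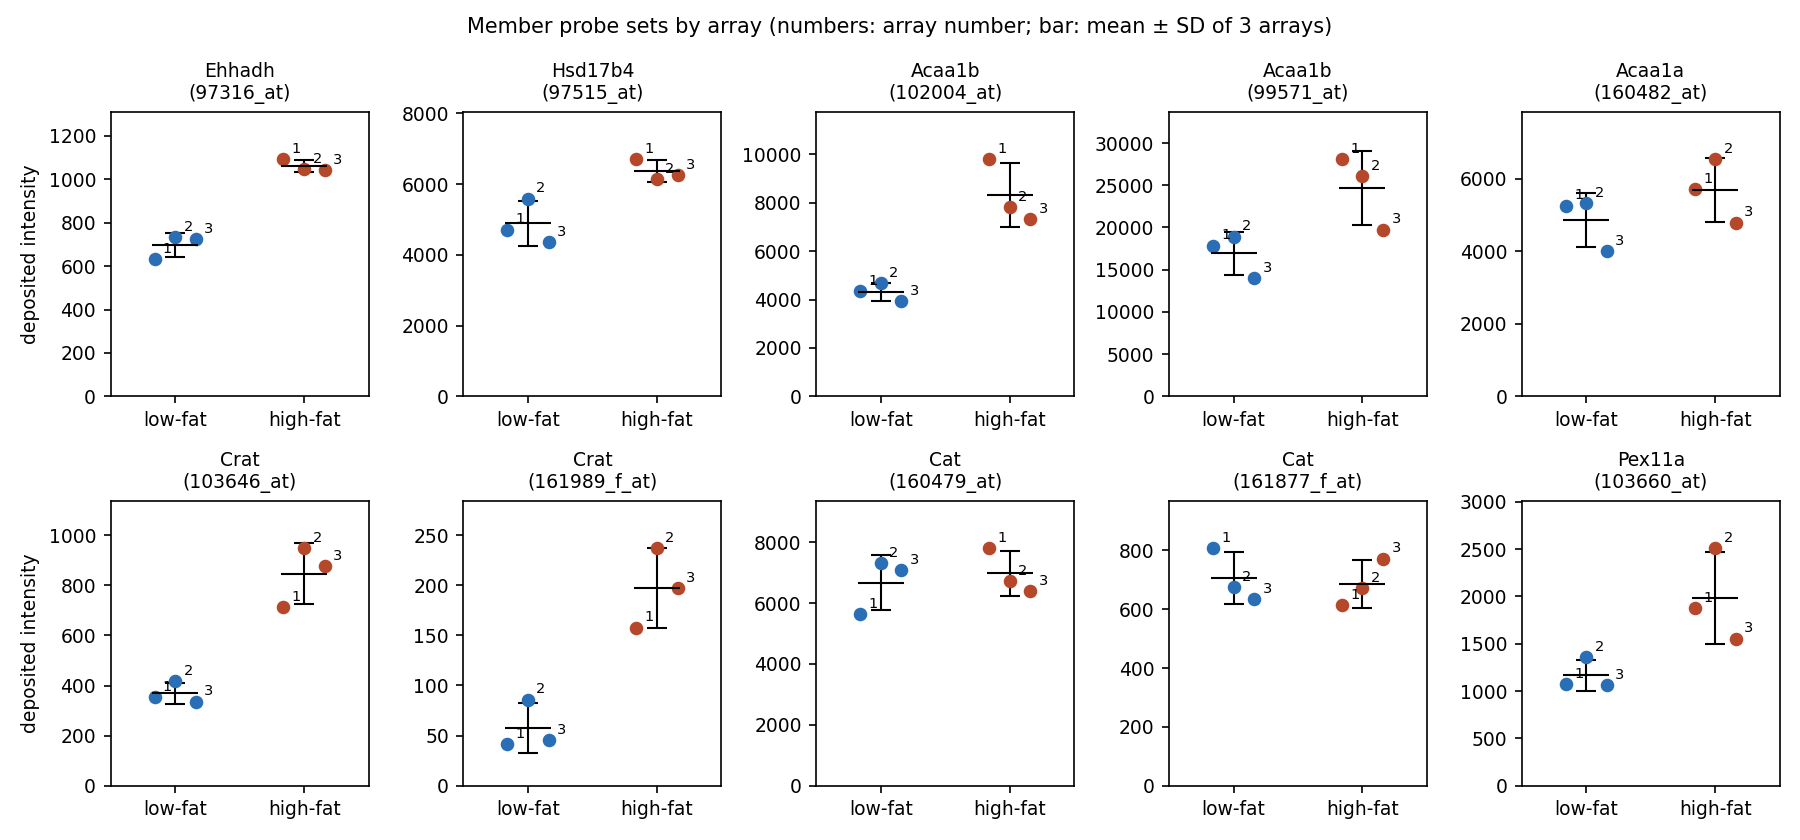
Deposited intensity (y axis, from 0, a scale for each panel) of the 10 member probe sets on the 3 low-fat and 3 high-fat arrays; points are arrays with their numbers, and bars are the mean ± SD of 3 arrays. The groups are apart for 7 probe sets, the dim 161989_f_at of Crat among them, and overlap for Acaa1a and both Cat probe sets.

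Of the 2 carnitine acyltransferases among the members, Crat was read, by 2 probe sets. Crat exchanges acetyl groups between coenzyme A and carnitine in peroxisomes and mitochondria. Its probe set 103646_at stood at 712, 949 and 878 on high-fat arrays 1, 2 and 3 and at 353, 416 and 336 on low-fat arrays 1, 2 and 3. The groups were far apart: the lowest high-fat array was 1.71 times the highest low-fat array. The means were 846 ± 121 (SD, n = 3) and 368 ± 42.3 (SD, n = 3), a log2 difference of 1.20 ± 0.18 (SE) at limma's adjusted p of 0.0177. The 95% interval of the fold ran from 1.74 to 3.02.

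The other Crat probe set, 161989_f_at, was much dimmer, at 158, 237 and 197 on the high-fat and 41.7, 85.9 and 45.2 on the low-fat arrays. On both diets array 2 was the highest. Only 1 of the 3 low-fat arrays lay above the floor, so the fold of 2.62, with a 95% interval from 1.74 to 3.96, depends on how dim values are treated. Its log2 difference of 1.39 was 1.84 with the floor at the 10th percentile and 1.08 with a constant added in place of the floor. Its adjusted p was 0.0551 in limma, and since it passed the filter through its high-fat arrays, its separation of the diets is given as a description and not as a second reading of Crat. The letter f in its name is the array maker's mark for probes that may also match related transcripts.

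The call of 103646_at depended on every array but high-fat array 1: limma's adjusted p was 0.0961 and 0.0518 when high-fat array 2 or 3 was left out and 0.0795, 0.0544 and 0.0588 when low-fat array 1, 2 or 3 was, while its log2 difference stayed between 1.11 and 1.31 with each array left out. The call was also lost in limma without its variance trend (adjusted p = 0.0680), without the filter on dim probe sets (0.139) and with both arrays numbered 3 left out (0.103). High-fat array 2, the highest for both Crat probe sets, also stood apart for the skeletal muscle actin gene Acta1, named after its values were seen, at 1771 against 19.4 to 60.0 on the other 5 arrays. Without that array 103646_at had a log2 difference of 1.11, against 1.20 with all 6.

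The peroxisomal thiolases are encoded in the mouse by a pair of closely related genes, Acaa1a and Acaa1b, which carry out the last step of each round of oxidation. Both lie on chromosome 9 with 6 other genes between them, 4 of them protein coding, per the RefSeq gene table of GRCm38.p6. Whether the probes tell these near-identical transcripts apart is not given in the sources used here, so the split between the genes is uncertain. Acaa1b was read by 2 probe sets and Acaa1a by 1.

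Acaa1b probe set 102004_at stood at 9801, 7823 and 7318 on high-fat arrays 1, 2 and 3 and at 4333, 4669 and 3930 on low-fat arrays 1, 2 and 3. Each high-fat array was at least 1.57 times each low-fat array. The means were 8314 ± 1312 (SD, n = 3) and 4311 ± 370 (SD, n = 3), and limma gave a log2 difference of 0.94 ± 0.14 (SE), at an adjusted p of 0.0203. The 95% interval of the fold of 1.92 ran from 1.54 to 2.40. The call did not hold when high-fat array 2 was left out (adjusted p = 0.0740 in limma) or when low-fat array 1, 2 or 3 was (0.0824, 0.0789 and 0.0743), with log2 differences between 0.82 and 1.03 over the 6 arrays left out in turn. It was also lost without the filter on dim probe sets (adjusted p = 0.180 in limma) and without the variance trend (0.118).

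Acaa1b probe set 99571_at was bright, at 28108, 26072 and 19756 on the high-fat and 17858, 18920 and 14040 on the low-fat arrays. The groups were apart by little, since high-fat array 3 was only 1.04 times low-fat array 2. On both diets array 3 was the lowest. The means were 24645 ± 4355 (SD, n = 3) and 16939 ± 2567 (SD, n = 3), a log2 difference of 0.54 ± 0.19 (SE) that did not pass limma's test (adjusted p = 0.391). Its 95% interval for the fold of 1.45 ran from 1.08 to 1.94.

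Acaa1a probe set 160482_at stood at 5717, 6551 and 4792 on the high-fat and 5262, 5342 and 4013 on the low-fat arrays. The groups overlapped, and array 3 was again the lowest on both diets. The means were 5686 ± 880 (SD, n = 3) and 4872 ± 745 (SD, n = 3), with a log2 difference of 0.22 ± 0.16 (SE) and an adjusted p of 0.780 in limma. The interval of its fold, from 0.907 to 1.50, lies below that of 102004_at, from 1.54.

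Differences between probe sets within an array cancel what is shared by the whole array. The 102004_at value minus that of 99571_at averaged -1.56 ± 0.16 (SD, n = 3) over the high-fat arrays and -1.97 ± 0.11 (SD, n = 3) over the low-fat arrays. The groups did not overlap, and the shift of 0.40 had p = 0.1 in an exact two-sided permutation test, the smallest that 3 arrays against 3 allow. The Acaa1b minus Acaa1a difference, a comparison added after the data were seen, shifted by 0.72 for 102004_at and by 0.31 for 99571_at, each with exact permutation p = 0.1. For the Crat pair the shift was -0.20 (exact permutation p = 0.1), with 2 of the 3 low-fat values of the dimmer probe set raised to the floor. It moved with the floor, to -0.64 at the 10th percentile and to 1.03, the other direction, at the 50th, so no direction is read from it. For the Cat pair the shift was 0.11 (exact permutation p = 0.7). Adjusted over the 5 pairs compared, the exact permutation p was 0.125 for the first 4 and 0.7 for Cat. None of the pairs passed 0.05, which this design cannot reach.

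**Figure D2:**
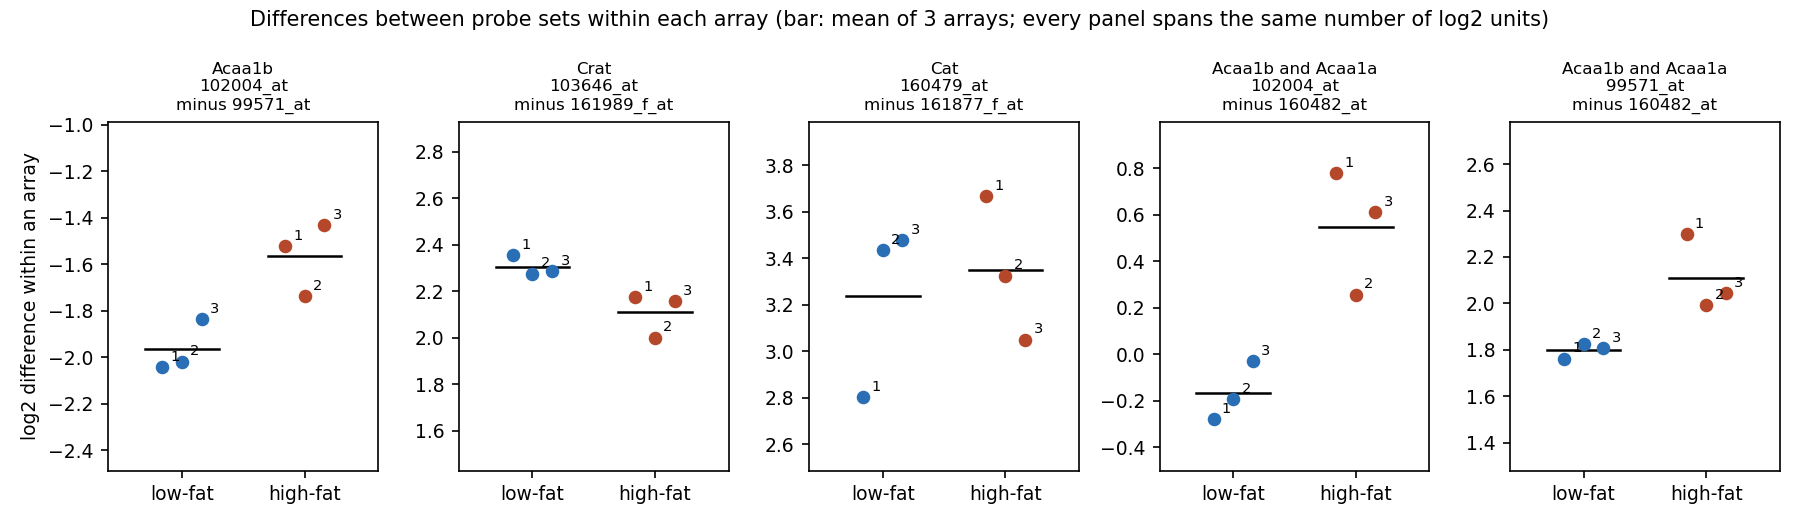
Log2 difference between 2 probe sets on the same array (y axis, log2 units) for 5 pairs, by diet; points are arrays with their numbers and bars are means of 3 arrays. The diets overlap for Cat and are apart for the other 4 pairs.

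The promoters of this pair are shown because the genes are closely related and the only thiolase probe set that rose is one of Acaa1b. Each window holds 250 bases before and 50 after the start of the gene, from RefSeq, build GRCm38.p6, at chr9:119157044-119157343 (minus strand) and chr9:119341044-119341343 (plus strand). Capitals mark AGGTCA, the half-site of nuclear receptors, and CCAAT, the CCAAT box, each on either strand.

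Acaa1b: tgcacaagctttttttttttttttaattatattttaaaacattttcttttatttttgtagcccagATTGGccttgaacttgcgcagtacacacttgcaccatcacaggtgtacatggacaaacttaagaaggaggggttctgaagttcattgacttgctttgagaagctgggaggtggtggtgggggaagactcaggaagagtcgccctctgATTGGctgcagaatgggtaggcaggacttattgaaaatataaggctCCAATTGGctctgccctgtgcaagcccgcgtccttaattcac

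Acaa1a: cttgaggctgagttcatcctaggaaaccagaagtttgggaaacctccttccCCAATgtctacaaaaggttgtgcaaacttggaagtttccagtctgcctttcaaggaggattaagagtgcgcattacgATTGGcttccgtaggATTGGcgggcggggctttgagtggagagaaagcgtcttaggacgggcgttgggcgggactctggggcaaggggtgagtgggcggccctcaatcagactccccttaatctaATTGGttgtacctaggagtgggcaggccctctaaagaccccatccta

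Both windows held 4 CCAAT matches, and 2 of those in Acaa1b share bases. Neither held AGGTCA or the direct repeat AGGTCANAGGTCA, the form of PPAR-alpha binding sites, which contains AGGTCA. The GC box GGGCGG, not marked, matched 3 times in Acaa1a and 0 times in Acaa1b, and the GC content was 53.3% and 43.7%. Of 32851 promoter windows of this length in the table, 37.4% held CCAAT, 16.3% AGGTCA, 35.7% GGGCGG and 0.0396% the direct repeat.

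Ehhadh and Hsd17b4 encode the bifunctional enzymes of the middle steps, Ehhadh acting mainly on straight-chain and dicarboxylic acids and Hsd17b4 also on branched-chain substrates. Ehhadh (97316_at) stood at 1093, 1048 and 1042 on high-fat arrays 1, 2 and 3 and at 631, 732 and 724 on low-fat arrays 1, 2 and 3. The high-fat arrays were very close to one another and at least 1.42 times each low-fat array. The means were 1061 ± 27.8 (SD, n = 3) and 695 ± 56.0 (SD, n = 3). The log2 difference of 0.61 ± 0.13 (SE), a fold of 1.53 with a 95% interval from 1.25 to 1.88, missed the threshold (limma's adjusted p = 0.0880).

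Hsd17b4 (97515_at) stood at 6707, 6142 and 6253 on the high-fat and 4712, 5585 and 4364 on the low-fat arrays. The groups did not overlap, though high-fat array 2 was only 1.10 times low-fat array 2. The means were 6368 ± 299 (SD, n = 3) and 4887 ± 629 (SD, n = 3), and the fold of 1.31, with a 95% interval from 1.07 to 1.60, did not pass (limma's adjusted p = 0.362).

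The Ehhadh promoter window, at chr16:21787785-21788084 (minus strand, GRCm38.p6, RefSeq), is shown because Ehhadh is a standard PPAR-alpha target.

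Ehhadh: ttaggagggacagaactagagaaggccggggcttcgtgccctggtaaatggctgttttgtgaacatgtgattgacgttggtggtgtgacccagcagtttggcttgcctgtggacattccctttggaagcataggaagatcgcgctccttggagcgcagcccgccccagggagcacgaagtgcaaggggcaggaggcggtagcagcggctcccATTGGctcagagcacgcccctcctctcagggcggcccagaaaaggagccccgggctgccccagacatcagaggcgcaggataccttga

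It held 1 CCAAT match, 38 bases before the start, and 0 matches to AGGTCA, and its GC content was 60.7%. The absence of AGGTCA from this window says nothing of sites elsewhere.

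Pex11a (103660_at), the peroxisome division gene, stood at 1876, 2509 and 1552 on high-fat arrays 1, 2 and 3 and at 1072, 1354 and 1066 on low-fat arrays 1, 2 and 3. The groups were apart, with high-fat array 2 far above the others and high-fat array 3 at 1.15 times low-fat array 2. The means were 1979 ± 486 (SD, n = 3) and 1164 ± 165 (SD, n = 3). The log2 difference was 0.75 ± 0.19 (SE), a fold of 1.68 with a 95% interval from 1.25 to 2.25, and it did not pass (limma's adjusted p = 0.179). With the replicate number as a block, which the titles do not label as pairs, Pex11a passed (limma's adjusted p = 0.0306).

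Catalase, encoded by Cat, breaks down the hydrogen peroxide that peroxisomal oxidation releases. Probe set 160479_at stood at 7804, 6734 and 6394 on the high-fat and 5634, 7312 and 7087 on the low-fat arrays, and the groups overlapped, with high-fat array 1 the highest and low-fat array 1 the lowest of the 6. The means were 6978 ± 736 (SD, n = 3) and 6678 ± 911 (SD, n = 3), with a fold of 1.05, a 95% interval from 0.837 to 1.31 and an adjusted p of 0.954 in limma. The dimmer 161877_f_at stood at 613, 672 and 772 on the high-fat and 807, 676 and 635 on the low-fat arrays, with a fold of 0.972, a 95% interval from 0.755 to 1.25 and an adjusted p of 0.981 in limma. The intervals of both exclude a change by 1.5-fold in either direction on this array. The sign of each turned when high-fat array 1 or low-fat array 1 was left out.

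The promoter window of Cat, at chr2:103485104-103485403 (minus strand, GRCm38.p6, RefSeq), is shown for its AGGTCA half-site.

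Cat: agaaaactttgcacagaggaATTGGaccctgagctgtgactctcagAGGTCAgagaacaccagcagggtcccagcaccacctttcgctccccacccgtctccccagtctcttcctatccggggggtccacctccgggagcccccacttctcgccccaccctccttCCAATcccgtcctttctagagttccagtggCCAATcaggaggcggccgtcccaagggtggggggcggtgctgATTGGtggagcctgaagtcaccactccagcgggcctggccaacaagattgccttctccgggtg

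The half-site lay 204 bases before the start, and 4 CCAAT matches were found. Of the 7 member genes whose windows were read, Cat was the only one with AGGTCA, and none held the direct repeat. No window of Crat or Hsd17b4 was read. The windows of Pex11a and Decr2 held 0 CCAAT matches and that of Crot held 1.

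**Figure D3:**
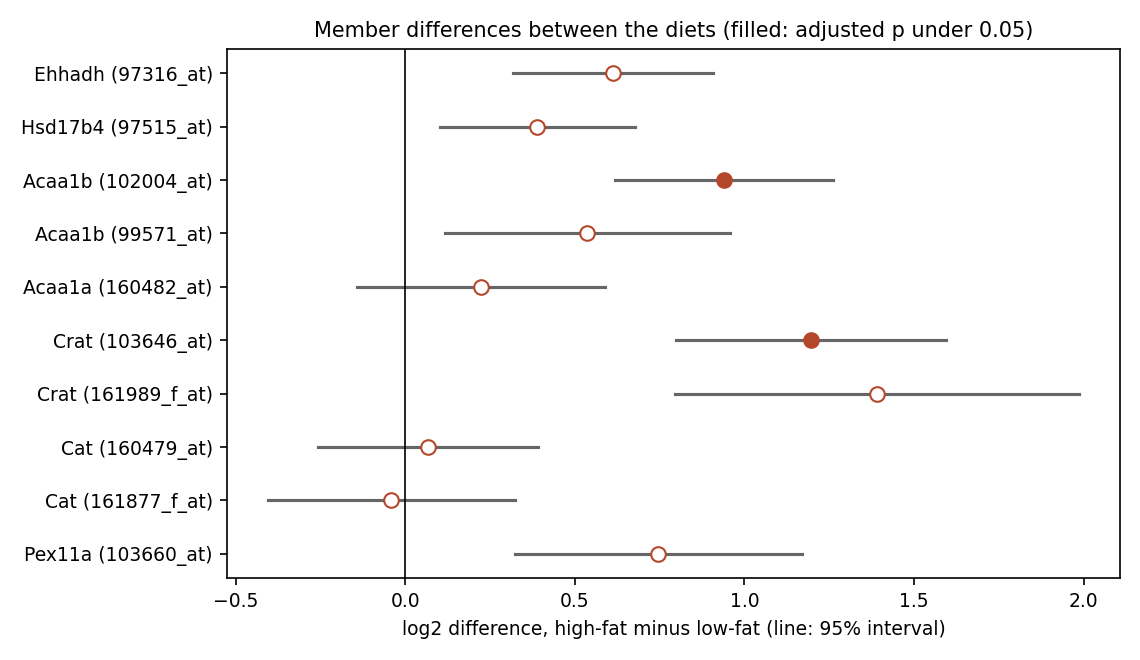
Log2 difference, high-fat minus low-fat (x axis), of each member probe set from limma, with its 95% interval; filled points have an adjusted p under 0.05. The intervals of Acaa1a and Cat include 0, and the other 7 lie above it.

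Within a diet, the members also shared part of the order of the arrays. Low-fat array 2 was the highest low-fat array for 9 of the 10 member probe sets, low-fat array 3 the lowest for 7, and high-fat array 3 the lowest high-fat array for 6. The median deviation of the members from their diet's mean was 0.16 on low-fat array 2 and -0.13 on low-fat array 3 on the log2 scale, against -0.0058 and 0.0096 for all probe sets tested. The Gapdh control probes, read at the 3' and 5' ends of the transcript as a sign of RNA integrity, had their lowest 3' to 5' ratios on the arrays numbered 3. There the ratio was 0.889 for high-fat and 0.824 for low-fat diet. On arrays 1 and 2 it was 1.22 and 1.23 for high-fat and 1.04 and 1.07 for low-fat diet. For each array number the ratio was thus higher on the high-fat diet, so it is partly confounded with diet. When this ratio was added to the model as a covariate, a choice made once the data were known, the log2 difference of 99571_at (Acaa1b) was 0.35 in place of 0.54. That of Acaa1a was 0.06 in place of 0.22 and that of Pex11a 0.58 in place of 0.75. The same covariate left Crat 103646_at at 1.18 and Acaa1b 102004_at at 0.84, both past limma's threshold with adjusted p-values of 0.0287 and 0.0191.

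Markers of liver cell types were read on the same arrays. The 8 hepatocyte markers with a probe set summed to between 126677 and 159584 on the high-fat and between 133191 and 162192 on the low-fat arrays, and albumin (Alb) was bright on all 6. Kupffer cell and macrophage markers, 11 of 12 with a probe set, summed to between 10780 and 12867 on the high-fat arrays and between 7877 and 9679 on the low-fat arrays, without overlap. Stellate cell and fibroblast markers, 5 of 6 with a probe set, summed to between 6709 and 8993 against between 6213 and 6612, also without overlap. Most of that sum came from Dcn, at 4462 to 5502 on the high-fat and 4039 to 4058 on the low-fat arrays, so it is mainly a reading of that gene. Tested collagen probe sets did not move together. Their log2 differences were 1.40 and -0.074 for Col1a2, 0.89 and -0.020 for Col1a1 and 0.27 for Col3a1, and the negative ones are very small. The value of 1.40 comes from a dim probe set, at 52.8, 46.2 and 133.9 on low-fat arrays 1, 2 and 3, which passed the filter through its high-fat arrays. That of 0.89 comes from a probe set that spread widely, at 20.1, 295.5 and 514.0 on high-fat arrays 1, 2 and 3. Markers of pancreatic acinar cells, 4 of 7 with a probe set, were highest on arrays numbered 2, at 9988 for high-fat and 5758 for low-fat diet, and lowest on arrays numbered 3, at 1470 and 1595. Summed adipocyte, muscle, erythroid, endothelial and kidney tubule markers overlapped between the diets. No marker was listed at 0, and 0 of 51 tested marker probe sets passed limma's threshold, against 0.827% of all tested. An unadjusted p under 0.05 in limma was reached by 7 of the 51, against 4.82% higher and 4.26% lower of all tested. Of these 7, 4 were among the 12 tested probe sets of Kupffer cells and macrophages. The part of these cell types in the member values was not tested. In whole liver, fewer cells of a type and less RNA per cell cannot be told apart.

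**Figure D4:**
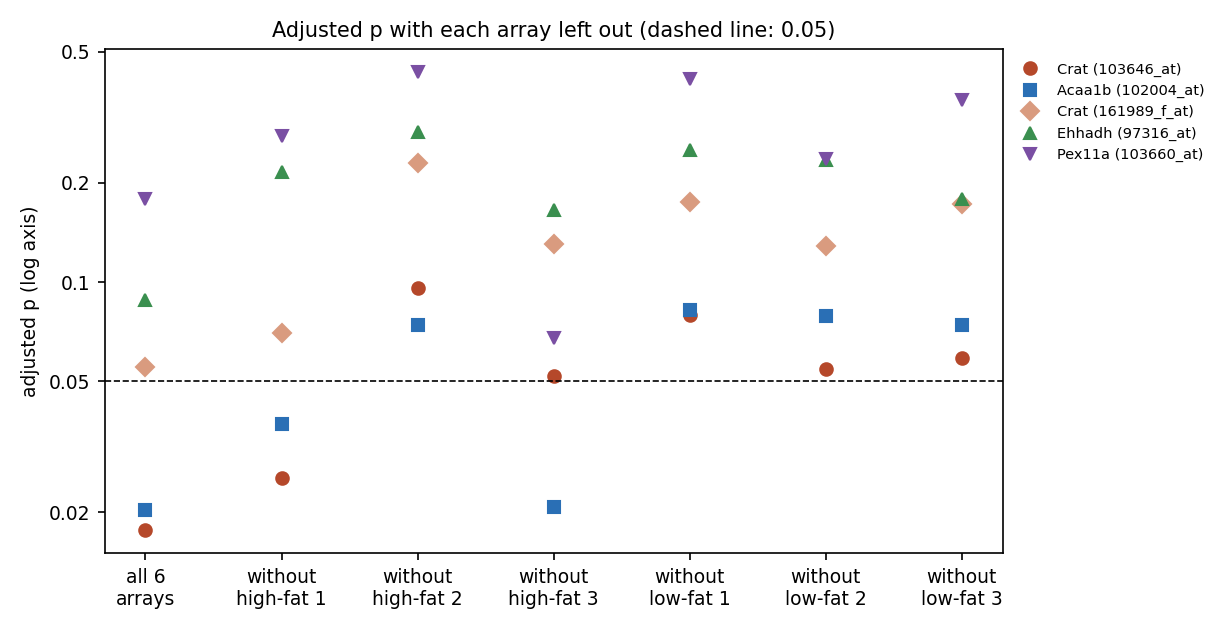
Adjusted p (y axis, log scale) of 5 member probe sets from limma with all 6 arrays and with each array left out; the dashed line is 0.05. Crat (103646_at) stays below it without high-fat array 1 only, and Acaa1b (102004_at) without high-fat array 1 or 3.

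Other genes of the pathway were read from lists, of which 53 probe sets for 47 genes were tested. None passed limma's threshold, while at an unadjusted p under 0.05 5 were higher and 5 lower with high-fat diet, against 4.82% and 4.26% of all probe sets tested. Over all probe sets, 0.827% passed limma's threshold. The diets did not overlap for 5 of the 53 on the higher and 6 on the lower side, against 7.34% and 6.76% of all tested. The lower counts, 5 by unadjusted p and 6 without overlap, each include the mevalonate kinase gene Mvk through both of its probe sets. The dimmer of these passed the filter only through its low-fat arrays. The mitochondrial carnitine shuttle and acyl-CoA entry genes had 4 of 5 values above 0 and a median log2 difference of 0.22. The acyl-CoA synthetase gene Acsl5 was at a fold of 1.33, the carnitine-acylcarnitine translocase gene Slc25a20 at 1.29 and Cpt1a, which encodes the liver enzyme that commits fatty acids to mitochondria, at 1.16, with adjusted p-values of 0.238, 0.391 and 0.611 in limma. In this list 3 of the 5 probe sets, those of these genes, had every high-fat array above every low-fat array and 0 had every one below, against 7.34% and 6.76% of all tested.

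The other genes of peroxisomal entry and oxidation had 9 of 14 probe sets above 0 and a median of 0.060. The dienoyl-CoA isomerase gene Ech1 was at a fold of 1.24, the thioesterase gene Acot8 at 1.38 and Nudt19, which encodes a CoA diphosphatase, at 0.768, with adjusted p-values of 0.413, 0.650 and 0.459 in limma. The fatty acid transporter gene of the peroxisome membrane, Abcd3, was at 1.04 and the sterol carrier and thiolase gene Scp2 at 1.11 and 1.12 on its 2 probe sets.

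The genes of peroxisome assembly and division, other than Pex11a, had 6 of 13 probe sets above 0 and a median of -0.053. The AAA ATPase gene Pex6, needed to recycle the import receptor, was at a fold of 0.737, and the docking factor gene Pex14 at 1.15 and 1.10 on its 2 probe sets with the smallest p (adjusted p-values of 0.569, 0.745 and 0.819 in limma). The peroxisomal enzymes outside fatty acid oxidation had 7 of 15 above 0 and a median of -0.053. The mevalonate kinase gene Mvk, also a cholesterol synthesis gene, was at a fold of 0.551, the glyoxylate aminotransferase gene Agxt at 0.672 and the pipecolic acid oxidase gene Pipox at 0.755, with adjusted p-values of 0.210, 0.251 and 0.353 in limma. In this list of 15, every high-fat array lay below every low-fat array for 4, these 3 among them, against 6.76% of all tested. Lonp2, which encodes a peroxisomal protease and was named after its values were seen, went the other way, with every high-fat array above every low-fat array at a fold of 1.23 that did not pass limma's threshold.

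Among the nuclear receptors and their coactivator, 3 of 6 probe sets were above 0 and the median was -0.10. Ppara was at a fold of 1.01 from its mean log2 values, while its mean intensity was slightly lower on the high-fat arrays, at 3583 ± 918 (SD, n = 3) against 3637 ± 1232 (SD, n = 3). Both differences are far smaller than the spread between arrays. The Pparg probe set was at 1.78 (limma's adjusted p = 0.512), with intensities of 180 ± 63.2 (SD, n = 3) and 92.6 ± 41.0 (SD, n = 3) and overlapping arrays. The probe sets of Rxra, the partner of the PPARs, with the smallest p and of Rxrb were at 0.735 and 0.792, with adjusted p-values of 0.618 and 0.713 in limma.

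**Figure D5:**
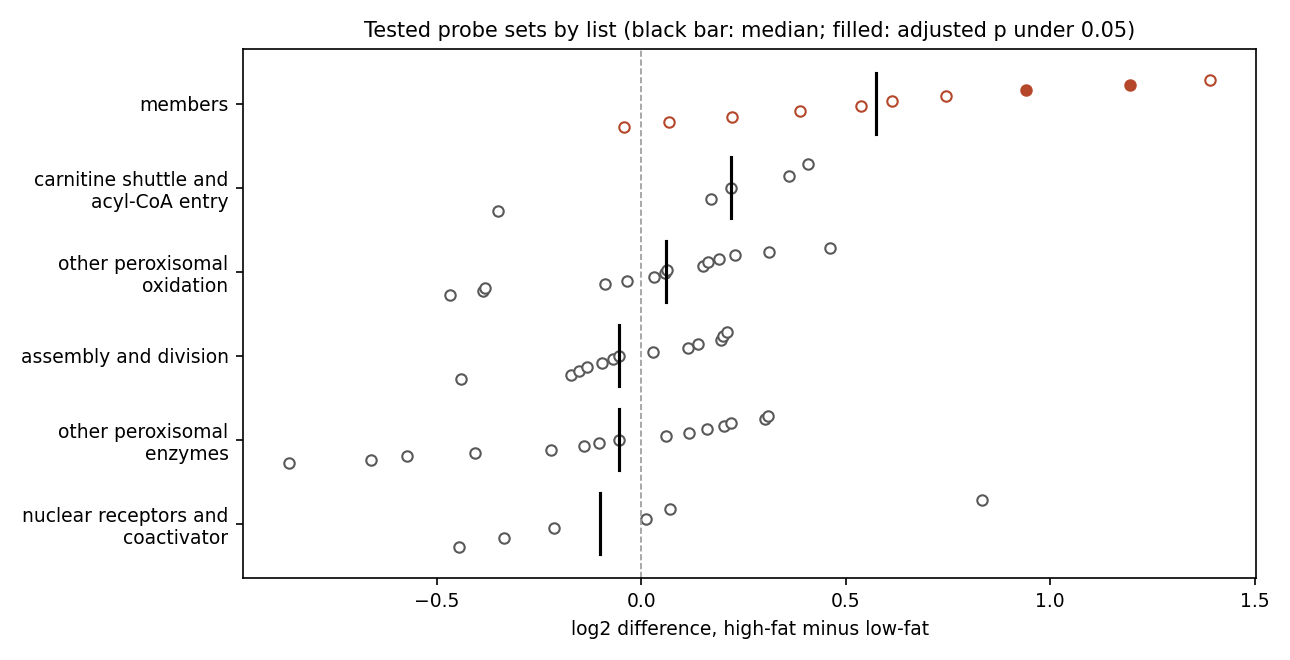
Log2 difference, high-fat minus low-fat (x axis), of each tested probe set of the members and of the 5 pathway lists; black bars are medians and filled points have an adjusted p under 0.05. The 10 members, the dim Crat probe set included, reach from -0.04 to 1.39 around a median of 0.57, and the list medians lie between -0.10 and 0.22.

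Genes with profiles most like those of the members were found by the root mean square distance between log2 profiles over the 6 arrays, each centred on its mean. The 5 nearest to Ehhadh were Hspa5, Hr, Ginm1, Tgoln1 and Retsat, at distances from 0.078 to 0.086 on the log2 scale. Of the other members, Hsd17b4 was the nearest to Ehhadh, at rank 79 with a distance of 0.16. The 5 nearest to the brighter Acaa1b probe set were Hsd17b11, Riox2, Wwc2, Sec16a and Taf10, at distances from 0.081 to 0.11, and Hsd17b4 followed at rank 77 and Acaa1a at rank 113. Each of these 10 genes was at a fold between 1.28 and 1.62, and none passed limma's threshold. The distance includes the difference between the diets, so folds near those of the 2 reference probe sets follow from the way these genes were chosen.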

How the data were processed

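Liver RNA was read on 6 Affymetrix arrays, 3 per diet, grouped by their titles. The authors deposited 1 linear intensity for each of 12488 probe sets. Which software, background correction and genome build were used is not given in the sources used here. Their distribution shows that each array had been scaled as a whole, since the mean without the lowest and highest 2% was 500.4 on all 6 arrays, and that scaling was kept. A probe set with a single symbol was named through the platform's gene table, 10839 of 10855 matched RefSeq (GRCm38.p6) by gene ID, and 0 symbols changed. The 66 control probe sets were left out. limma 3.58.1 in R 4.3.3 (lmFit, eBayes with a trend) ran a two-sided test of high-fat minus low-fat, after a test on simulated data. Exact permutation tests used SciPy 1.17.1. The members, pathway lists and cell type lists were chosen with earlier results of these data known. All member probe sets are described. From each list those past the threshold, otherwise the 3 with the smallest p, are named, and the 5 most alike by distance. Other genes named (Abcd3, Scp2, Ppara, Lonp2, Alb, Acta1, Myl1, Ckm, Myh4) were chosen after their values were seen. Precision is limited by the number of arrays; median intensities ran from 171.5 to 188.4. The alternatives were other normalizations, floors, filters and limma settings, array weights, the replicate block, arrays left out and an adjusted p of 0.10.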

Additional observations from a re-analysis of the deposited data

How the results depend on the processing

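The count of 2 member probe sets past an adjusted p of 0.05 in limma was the same under quantile normalization, median scaling, a floor at the 10th or the 50th percentile, a constant added in its place, a filter asking for all 6 arrays, robust estimation, array weights, plain probe sets alone and the Gapdh covariate. It was 0 without a filter on dim probe sets and 0 without the trend, where 8 and 20 of all probe sets passed, 1 with both arrays numbered 3 left out, and 4 at an adjusted p of 0.10. With each array left out it ran from 0 to 2. Of the 9 members with all 6 arrays above the floor, the number with every high-fat array above every low-fat array was 6 or 7 with 1 array or both arrays numbered 3 left out, where up to 19.1% of all probe sets did so. The pathway lists had 0 calls in each of these settings. The Cat values turned sign when array 1 of either diet was left out. Over the 6 arrays left out in turn the log2 difference of 160479_at ran from -0.050 to 0.14 and that of 161877_f_at from -0.13 to 0.059, and the shift of the Cat pair ran from -0.11 to 0.26. The shift of the Crat pair was -0.64 with the floor at the 10th percentile and 1.03 with the floor at the 50th percentile, where all 3 low-fat values of the dimmer probe set and 1 high-fat value lie at the floor. The replicate numbers were not taken as pairs, since the titles give only a number and do not label pairs. Deviations of same-numbered arrays correlated at r = 0.071, 0.11 and 0.31. The same-numbered array was the best match for high-fat arrays 2 and 3, while high-fat array 1 correlated slightly better with low-fat array 2 (r = 0.113). Arrays of unlike number correlated from -0.21 to 0.113. What arrays of the same number share was not tested. The fit with the replicate block called 3 member probe sets, adding Pex11a (limma's adjusted p = 0.0306), and 103 of all probe sets in place of 74. Leaving out arrays also leaves fewer samples for the test.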
